A study of Homo sapiens with 4 samples.

Results

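The WNT pathway genes described here are 60 genes picked by symbol from the deposited count table of HCT116 cells, a human colon carcinoma line. They are ligands and their secretion factors, receptors, the genes of receptor turnover, Dishevelled proteins, the destruction complex, beta-catenin with its nuclear partners, and target genes. Of the 60 genes, 49 had a row among the 35820 rows of the table. The other 11 were not analysed here: FZD1, FZD2, FZD4, FZD5, FZD7, FZD8, FZD9, ASCL2, SOX4, SOX9 and TDGF1. In GENCODE 29, 6 of these 11 genes have a single exon. Of all protein-coding genes with 1 exon 30.2% had a row, against 89.2% of those with 4 or more exons. Of the 49 genes with a row, 8 had 0 counts in every library, 5 had a few counts and did not pass the filter on low counts, and 36 were tested.

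RNA was measured in 4 libraries. The wild-type group (WT, 2 libraries) is the unedited line, and the knockout group (KO, 2 libraries) is clone E2-4 of the same line, edited by CRISPR at exon 2 of TOP3B, a topoisomerase that acts on RNA and DNA. Both groups were grown in the same serum-containing medium, no treatment is named, and ribosomal RNA was depleted from total RNA before sequencing. The KO group is 1 clone, so clone and genotype cannot be told apart. Whether the 2 libraries of each group are from separate cultures is not stated, so p-values measure the spread between these libraries, which may be technical.

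WNT ligands bind a Frizzled receptor together with the co-receptor LRP5 or LRP6, and the signal passes through Dishevelled to the destruction complex. That complex, built on APC and axin with the kinases GSK3 and casein kinase I, marks beta-catenin for degradation. Stabilised beta-catenin enters the nucleus, binds TCF/LEF factors and turns on target genes, several of which are inhibitors that feed back on the pathway. The membrane ubiquitin ligases RNF43 and ZNRF3 are such inhibitors: they remove Frizzled from the cell surface, and R-spondins acting through LGR4 and LGR5 counter them. Constant activity of this pathway is a hallmark of colorectal cancer, and HCT116 carries an activating mutation of the beta-catenin gene CTNNB1.

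The libraries held between 10450048 and 16143634 estimated counts in genes. The scaling factor of WT replicate 1 was 0.858 (trimmed mean of M-values, TMM), against 1.04 to 1.06 in the other 3 libraries, so results are also given without that library where it moves them. RN7SK, SNORD3A and RMRP, which are small noncoding RNAs, took 11.4% and 9.90% of counts in WT and 7.78% and 7.33% in KO; their part in the results was not tested. TOP3B RNA was still present in KO (49.3 ± 7.60 CPM, which are counts scaled to library size, against 61.8 ± 6.65 CPM in WT; SD, n = 2 each; edgeR adjusted p = 0.522), so its level does not check the genotype. The epithelial markers EPCAM, KRT8, KRT18, KRT19 and CDH1 were detected in every library, while the intestinal markers KRT20, VIL1 and LGALS4 had between 0 and 4 counts and CDX2 had 46, 44, 56 and 0. Summed over a list of 10 epithelial markers, of which 9 had a row, the level was 2117 to 2584 CPM in WT and 1452 to 1522 CPM in KO. KRT19, the most abundant, carried nearly all of that difference in summed CPM (1994 ± 353 against 1145 ± 86.5 CPM; SD, n = 2 each). Of the 6 epithelial markers tested, 5 had a log2 fold change below 0, where 51.5% of all genes tested did. It was -0.80 for KRT19, -0.76 for CDH1 and -0.38 for EPCAM, whose groups did not overlap, and 0.41 for KRT18. KRT19 was the 1 called by DESeq2, an alternative test (adjusted p = 0.00290), where 0.946% of genes with an adjusted p were called lower. The part of these markers in the results was not tested. Fibroblast, leukocyte and endothelial markers together made up no more than 1.72, 0.539 and 0.0904 CPM in any library, with COL1A2, COL3A1, PTPRC, CD3E and VWF at 0 counts in all 4.

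RNF43 and FZD3 were the WNT pathway genes with the clearest difference between the groups. RNF43 stood at 91.8 and 84.8 CPM in WT and at 17.9 and 20.6 CPM in KO (counts 1191 and 1035, then 198 and 351). Both KO libraries lay far below both WT libraries, and the libraries of each group were close to each other. FZD3, a Frizzled receptor best known for guiding axons and planar polarity, stood at 25.9 and 24.7 CPM in WT and at 4.70 and 3.05 CPM in KO (counts 336 and 302, then 52 and 52). For FZD3 too the groups were widely apart, with a larger relative spread between the KO libraries than between the WT libraries. In bulk RNA, fewer cells with a transcript and less of it per cell cannot be told apart.

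RNF43 was 4.58-fold lower in KO (log2 fold change -2.19, SE 0.15), and FZD3 was 6.58-fold lower (-2.72, SE 0.28). With DESeq2, which was run as an alternative test, both genes fell, with an adjusted p of 2.26e-19 for RNF43 and 2.06e-09 for FZD3. The main test, edgeR's quasi-likelihood F-test adjusted over all genes, did not call either of them (adjusted p = 0.0729 for RNF43 and 0.170 for FZD3). It called 0 of the 36 WNT pathway genes, against 1 of 12269 genes in all (0.00815%). DESeq2 called 2 of the 36 lower and 0 higher, where 0.946% of the 12899 genes with an adjusted p were called lower and 0.504% higher (1.45% in either direction). Without WT replicate 1 the log2 fold changes were -2.13 for RNF43 and -2.68 for FZD3, and DESeq2 still called both (adjusted p = 9.25e-08 and 0.00613).

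**Figure D1:**
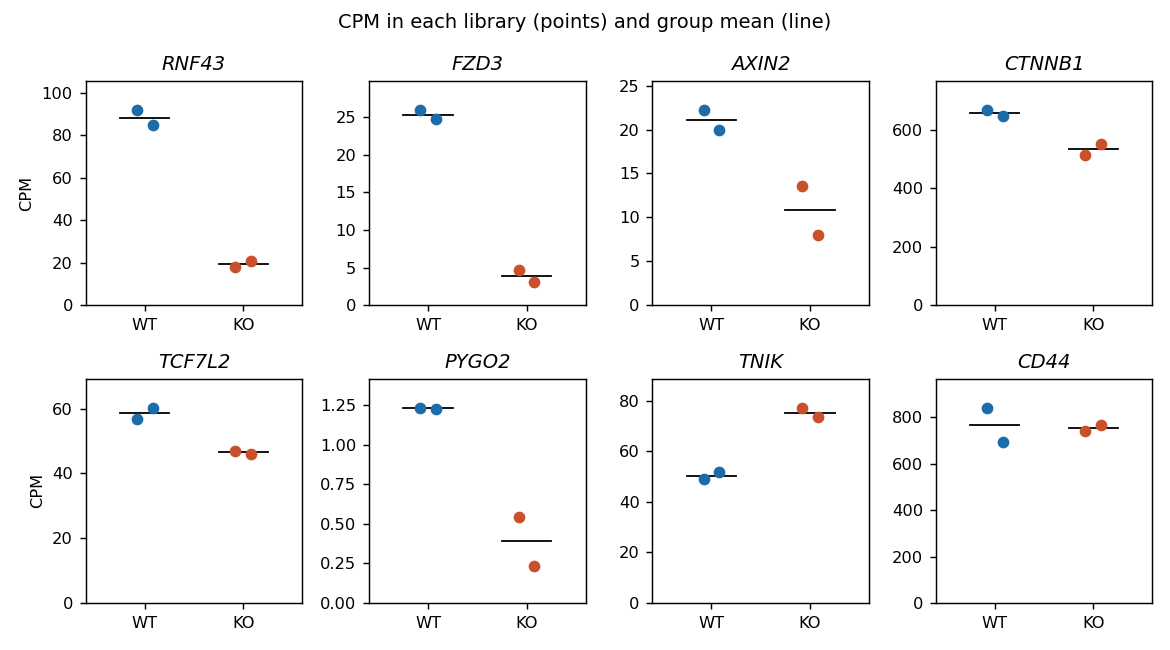
CPM (y axis, from 0, one scale per gene) of 8 WNT pathway genes in the WT and KO libraries; each point is 1 library and each line a group mean of 2 libraries. RNF43 falls from 84.8 to 91.8 CPM in WT to 17.9 to 20.6 in KO and FZD3 from about 25 to under 5, while the groups overlap for CD44.

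At an unadjusted edgeR p under 0.05, 6 of the 36 tested genes were lower in KO and 1 was higher. Over all genes tested this threshold was met by 6.21% in the lower and 4.97% in the higher direction. The 6 were RNF43, FZD3, AXIN2, PYGO2, TCF7L2 and CTNNB1, and the higher gene was TNIK. In 11 of the 36 genes the groups did not overlap with KO the lower, and in 6 with KO the higher, where 23.5% of all genes tested did so in each direction. The median log2 fold change was -0.10 over the 36 genes and -0.01 over all genes tested, and 22 of the 36 lay below 0 (51.5% of all genes did). Without WT replicate 1, 17 of the 36 lay below 0 and the median was 0.02, so the balance of directions over the whole pathway rests on that library.

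**Figure D2:**
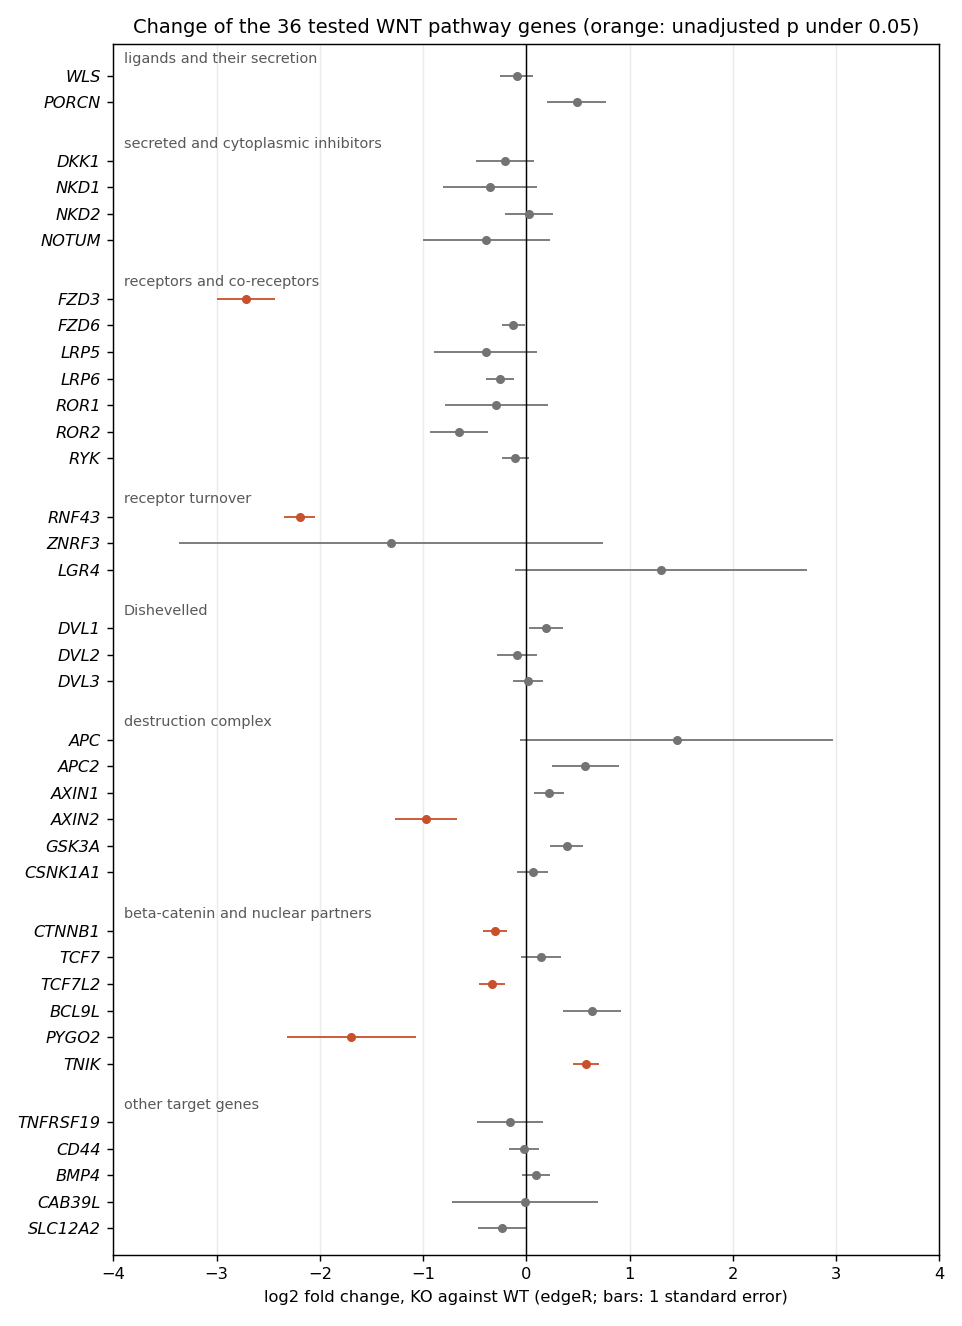
Log2 fold change of KO against WT (x axis) for the 36 tested WNT pathway genes, grouped by role on the y axis; points are edgeR estimates, bars 1 standard error, and orange marks an unadjusted p under 0.05. RNF43 and FZD3 lie furthest to the left with short bars, while ZNRF3, LGR4 and APC have the longest bars.

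Of the 5 ligands in the set, none had more than 2 counts in a library. WNT3, WNT5A, WNT6 and WNT11 had 0 counts in all 4 libraries. By counting error only, a level below 0.176 to 0.271 CPM (3 counts), depending on the library, could not be seen. Estimated counts of ZNRF3 and APC were 0 in some libraries and not in others, so a 0 does not firmly bound the level. WNT10A had 1 or 2 counts in each. The factors that ligand-producing cells need were expressed. WLS, the carrier that brings lipid-modified WNT proteins to the cell surface, stood at 33.8, 31.2, 32.7 and 28.3 CPM (WT replicates 1 and 2, then KO replicates 1 and 2), with overlapping groups. PORCN, the acyltransferase that attaches the lipid, had 4.93 and 5.16 CPM in WT and 7.77 and 6.40 CPM in KO (log2 fold change 0.49, SE 0.28; edgeR unadjusted p = 0.147). Among 14 further ligands and R-spondins with a row, WNT16 was the most abundant, with 29.7 and 18.4 CPM in WT and 29.5 and 17.7 CPM in KO, and the libraries differed as much within as between groups.

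All 7 receptors and co-receptors with a row had a log2 fold change below 0, where 51.5% of all genes tested did. The median of -0.29 was the value of ROR1, which had 15 to 19 counts a library. LRP5, ROR1 and RYK had overlapping groups, and each turned direction in a fit with a library left out. FZD3 was the 1 of the 7 called by DESeq2, where 0.946% of genes with an adjusted p were called lower, and edgeR called 0 after adjustment. In 4 of the 7 the KO libraries were both lower than the WT libraries (FZD3, FZD6, LRP6 and ROR2), against 23.5% of all genes tested. The count below 0 was 6 of 7 when WT replicate 1, WT replicate 2 or KO replicate 2 was left out, and 7 of 7 without KO replicate 1. Leaving out WT replicate 1 moved the median to -0.49, and leaving out KO replicate 2 moved it to -0.15. FZD6, a Frizzled of planar polarity, stood at 92.0 and 90.9 CPM in WT and at 83.9 and 83.7 CPM in KO. Its groups did not overlap, but the difference was small (log2 fold change -0.13, SE 0.11; edgeR unadjusted p = 0.307).

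The co-receptor LRP6 had 102.6 and 97.4 CPM in WT and 90.4 and 77.1 CPM in KO (log2 fold change -0.26, SE 0.13; edgeR unadjusted p = 0.113), and -0.15 without KO replicate 2. LRP5 had between 29 and 67 counts a library and overlapping groups. ROR2, a receptor of noncanonical WNT5A signalling, had 24.2 and 28.0 CPM in WT and 12.5 and 20.6 CPM in KO (log2 fold change -0.65, SE 0.28; edgeR unadjusted p = 0.0699); its log2 fold change was -1.06 without KO replicate 2 and -0.34 without KO replicate 1. RYK, a WNT-binding pseudokinase, was the most abundant receptor in CPM, with 312.5, 266.1, 261.9 and 276.1 CPM, and its groups overlapped. ROR1 had 15 to 19 counts.

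Levels of different genes can be set side by side only per length, as in RPKM, which are reads scaled to library size and gene length. By the deposited RPKM in WT, RYK came first (5.62 ± 0.125), followed by FZD6 (2.62 ± 0.334), LRP6 (1.22 ± 0.121), FZD3 (0.563 ± 0.0574), ROR2 (0.162 ± 0.0386), LRP5 (0.0930 ± 0.0611) and ROR1 (0.00324 ± 0.00111; SD, n = 2 each). The WT libraries of the first 5 did not overlap in this order, while those of LRP5 and ROR2 did. In KO, FZD3 had a mean of 0.0953 RPKM, below ROR2 (0.113) and above LRP5 (0.0754). The KO libraries of FZD3 (0.115 and 0.0756) overlapped those of ROR2 (0.0853 and 0.141) and of LRP5 (0.0649 and 0.0860), so their order in KO is not firm. The lengths implied by the deposited RPKM were longer than the annotated exons in 39 of 41 genes and shorter for DVL2 and GSK3A; over the 41 the median was 5.31 times the exon length. In CPM per kilobase of exon, a scale added after the data were seen, the order in WT was RYK (35.95 ± 4.08), FZD6 (22.5 ± 0.192), LRP6 (9.67 ± 0.360), ROR2 (4.49 ± 0.463), FZD3 (1.84 ± 0.0595), LRP5 (0.645 ± 0.347) and ROR1 (0.202 ± 0.0421; SD, n = 2 each). ROR2 and FZD3 thus change places with the length used, and on the exon scale FZD3 in KO (0.281) lay below LRP5 (0.489).

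**Figure D3:**
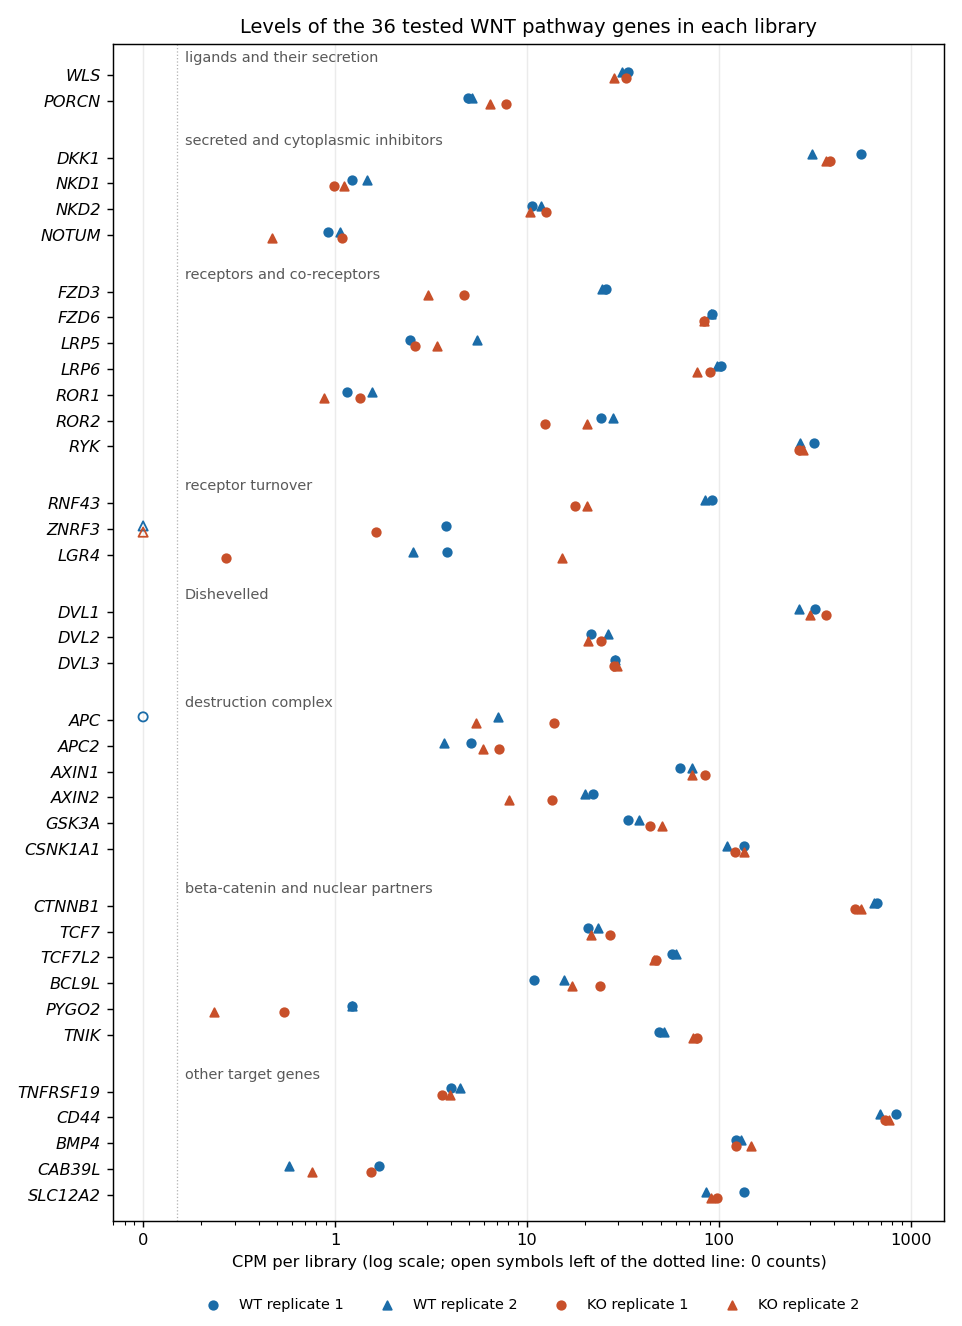
CPM (x axis, log scale) of the 36 tested WNT pathway genes in each of the 4 libraries, by role; circles are replicate 1, triangles replicate 2, blue WT and orange KO, and open symbols left of the dotted line are libraries with 0 counts. Levels run from 0.235 CPM in a KO library of PYGO2 to 840.3 CPM in a WT library of CD44, and the open symbols belong to ZNRF3 and APC.

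The genes of receptor turnover could not be compared as a set, because only RNF43 had steady estimates. ZNRF3, the paralog of RNF43, had 49 and 0 counts in WT and 18 and 0 counts in KO. Each group thus held a library at 0, and the ratio of RNF43 to ZNRF3 planned for each library could not be formed. LGR4 had 50 and 31 counts in WT and 3 and 261 counts in KO, a 56.5-fold difference between the KO libraries. LGR5, a marker of intestinal stem cells and a WNT target, had 0 to 3 counts in every library. Estimated counts can drop to 0 in a single library where reads are shared between gene models; whether this happened for ZNRF3 or LGR4 was not tested.

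RefSeq gives 2 transcription start sites for RNF43, and the 250 bases before each are shown because it is the target gene with the largest difference. The promoters of DKK1 and SP5 are shown beside them as WNT target genes with a TCF/LEF core motif. Both were picked because they held a match in the same search. The search covered the 250 bases before and 50 after each start, on both strands, for CTTTGAT and CTTTGTT, and capitals mark a match. Coordinates are of GRCh38.p14, given for the printed 250 bases, on the minus strand for RNF43 and the plus strand for DKK1 and SP5.
RNF43, chr17:58402722-58402971: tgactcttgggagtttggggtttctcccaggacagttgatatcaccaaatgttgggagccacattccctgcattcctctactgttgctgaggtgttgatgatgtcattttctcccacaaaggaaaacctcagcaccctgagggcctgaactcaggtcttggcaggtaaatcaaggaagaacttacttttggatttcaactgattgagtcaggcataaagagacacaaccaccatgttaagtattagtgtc
RNF43, chr17:58417535-58417784: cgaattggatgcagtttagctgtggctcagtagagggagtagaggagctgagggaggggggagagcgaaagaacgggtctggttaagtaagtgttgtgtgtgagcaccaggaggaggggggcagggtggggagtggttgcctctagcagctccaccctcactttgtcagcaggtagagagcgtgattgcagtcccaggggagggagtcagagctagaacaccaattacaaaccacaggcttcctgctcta
DKK1, chr10:52314031-52314280: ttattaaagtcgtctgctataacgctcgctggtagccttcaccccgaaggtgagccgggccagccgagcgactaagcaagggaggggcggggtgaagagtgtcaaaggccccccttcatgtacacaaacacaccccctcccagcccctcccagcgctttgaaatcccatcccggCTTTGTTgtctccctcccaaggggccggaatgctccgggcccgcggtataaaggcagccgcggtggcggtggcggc
SP5, chr2:170715087-170715336: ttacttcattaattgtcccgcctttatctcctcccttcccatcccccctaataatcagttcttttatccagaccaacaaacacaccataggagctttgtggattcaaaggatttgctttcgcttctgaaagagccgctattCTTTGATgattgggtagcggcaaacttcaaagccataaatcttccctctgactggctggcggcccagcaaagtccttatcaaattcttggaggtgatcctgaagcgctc

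Neither RNF43 window held the letters searched. RefSeq's table held 58 promoters of 44 of the 60 genes, and 5 of the 58 (8.62%) held a match, against 7.61% of 35116 promoters of the same length. Among tested WNT pathway genes 3 of 41 promoters (7.32%) held a match, against 5.05% of 14007 promoters of all genes tested. Of the 58, 18 belonged to genes labelled as WNT targets, RNF43 among them, and 3 of the 18 (16.7%) held a match. Most target promoters thus held none, like those of RNF43. The matches belonged to DKK1, SP5, TCF7, TCF7L2 and WNT3. Of the 5 genes, WNT3 and SP5 had 0 counts, and DKK1, TCF7 and TCF7L2 were expressed. The GC content of the RNF43 windows was 43.7% and 54.3%, below the median of 66.8% over the 58 promoters and of 58.7% over all 35116.

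Feedback inhibitors are switched on by the pathway they restrain. Of 8 such genes, 7 were tested and 6 had a log2 fold change below 0, where 51.5% of all genes tested did. The median of -0.39 was the value of NOTUM, which had 8 to 13 counts a library. Without KO replicate 2 the median was -0.22 and without KO replicate 1 it was -1.07. Of the 6 genes, ZNRF3, NOTUM and DKK1 turned direction in a fit with a library left out. Groups did not overlap in 3 of the 7, all with KO the lower, against 23.5% of all genes tested in that direction. RNF43 was the 1 called by DESeq2, where 0.946% of genes with an adjusted p were called lower, and edgeR called 0 after adjustment. AXIN2, an axin made under the control of beta-catenin and often used as a readout of the pathway, stood at 22.2 and 19.98 CPM in WT and at 13.6 and 8.04 CPM in KO. The groups did not overlap, and the KO libraries differed from each other by more than the WT libraries did. The log2 fold change of AXIN2 was -0.97 (SE 0.30; edgeR unadjusted p = 0.0226, adjusted p = 0.388; DESeq2 adjusted p = 0.290), and it was -0.64 without KO replicate 2.

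DKK1, a secreted antagonist of LRP5 and LRP6, had the highest WT RPKM of the 36 tested genes (161.7 ± 43.9; SD, n = 2). It stood at 549.1 and 307.1 CPM in WT and at 381.0 and 361.4 CPM in KO, so that both KO libraries lay between the WT libraries. The log2 fold change of DKK1 was -0.21 (SE 0.28; edgeR adjusted p = 0.784) with all libraries, 0.27 without WT replicate 1 and -0.55 without WT replicate 2. NKD2, an antagonist of Dishevelled, had 10.6, 11.9, 12.7 and 10.3 CPM and overlapping groups. NKD1 and the WNT deacylase NOTUM had 8 to 19 counts a library, and APCDD1 had 0 counts in all 4.

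Among genes of the destruction complex, 5 of the 6 tested had a log2 fold change above 0. The exception was AXIN2, which lay below 0, as did 51.5% of all genes tested. With all libraries none passed a test after adjustment, and the median was 0.31. Groups did not overlap in 3 of the 6 with KO the higher and in 1 with KO the lower, against 23.5% of all genes tested in each direction. The 5 include APC, with an SE of 1.52, and CSNK1A1, which turned direction in a fit with a library left out. AXIN1, the constitutive axin, had 62.7 and 72.3 CPM in WT and 84.8 and 72.7 CPM in KO (log2 fold change 0.22, SE 0.15; edgeR unadjusted p = 0.195). It ran from 0.11 to 0.34 with a library left out, lowest without KO replicate 1. The KO libraries were the higher ones, by a margin of under 1 CPM between the nearest libraries. GSK3A stood at 33.5 and 38.6 CPM in WT and at 43.8 and 50.6 CPM in KO (0.39, SE 0.16; edgeR unadjusted p = 0.0598). CSNK1A1, the casein kinase that primes beta-catenin, had 135.9, 110.3, 121.9 and 135.1 CPM, with overlapping groups.

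The ratio of AXIN2 to AXIN1 within a library does not depend on scaling between libraries. It was 0.354 and 0.276 in WT and 0.160 and 0.111 in KO. Both KO ratios lay below both WT ratios, by 2.35-fold on the log2 mean. The exact permutation test, two-sided, gave p = 0.333, the smallest value that 2 against 2 libraries allow. The ratio of NKD1 to NKD2 was 0.116 and 0.124 in WT and 0.0786 and 0.108 in KO (exact permutation p = 0.333, two-sided).

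Other scaffold and kinase genes of the complex had estimates too unsteady for a comparison. APC, the tumour suppressor scaffold, had 0 and 86 counts in WT and 154 and 93 counts in KO, and its log2 fold change of 1.46 had an SE of 1.52. Without WT replicate 2, where the WT value is the library at 0 alone, the log2 fold change of APC was 10.05. The lowest value with a library left out was 0.45. APC2 had 66, 45, 79 and 101 counts, and in CPM the KO libraries were both higher (log2 fold change 0.57, SE 0.33; edgeR unadjusted p = 0.140). GSK3B, a kinase that cells in general express, had 4, 0, 3 and 2 counts, so its estimate is doubtful and no level is drawn from it.

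The Dishevelled genes DVL1, DVL2 and DVL3 carry the signal from receptor to destruction complex, and their groups overlapped in all 3 cases. DVL1 was the most abundant, with 319.0 and 260.9 CPM in WT and 364.1 and 297.6 CPM in KO. Their log2 fold changes were 0.19 (SE 0.17), -0.09 (SE 0.19) and 0.01 (SE 0.15).

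CTNNB1, the beta-catenin gene, was abundant and slightly lower in KO, with 666.3 and 647.1 CPM in WT and 513.4 and 551.4 CPM in KO. The groups did not overlap, and the difference of 1.23-fold (log2 fold change -0.30, SE 0.12) was larger than the spread within them but did not pass after adjustment (edgeR unadjusted p = 0.0484, adjusted p = 0.445; DESeq2 adjusted p = 0.484). TCF7L2, the main TCF factor of the intestine, stood at 56.9 and 60.2 CPM in WT and at 47.0 and 46.0 CPM in KO (-0.33, SE 0.13; edgeR unadjusted p = 0.0476, adjusted p = 0.445). TCF7 had 20.7, 23.3, 27.2 and 21.5 CPM and overlapping groups. LEF1 had 0 counts in all 4 libraries and TCF7L1 had 1 to 7, so TCF7L2 and TCF7 were the TCF/LEF genes with appreciable counts.

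TNIK, a kinase that phosphorylates TCF7L2 and acts as its coactivator, had the opposite direction. It stood at 49.0 and 51.8 CPM in WT and at 77.2 and 73.5 CPM in KO. The libraries of each group were close and the groups did not overlap (log2 fold change 0.58, SE 0.12; edgeR unadjusted p = 0.00526, adjusted p = 0.274; DESeq2 adjusted p = 0.123). BCL9L, an adaptor between beta-catenin and Pygopus, had 10.9 and 15.6 CPM in WT and 24.0 and 17.3 CPM in KO (0.63, SE 0.28; edgeR unadjusted p = 0.0738), and ran from 0.38 without KO replicate 1 to 0.92 without WT replicate 2. PYGO2, the Pygopus protein that reads methylated histone H3, had 16 and 15 counts in WT and 6 and 4 in KO. Its log2 fold change of -1.70 had an SE of 0.62 (edgeR unadjusted p = 0.0412; DESeq2 adjusted p = 0.859), and its counts are too few for a firm statement. BCL9 had 6 to 10 counts a library and was not tested.

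**Figure D4:**
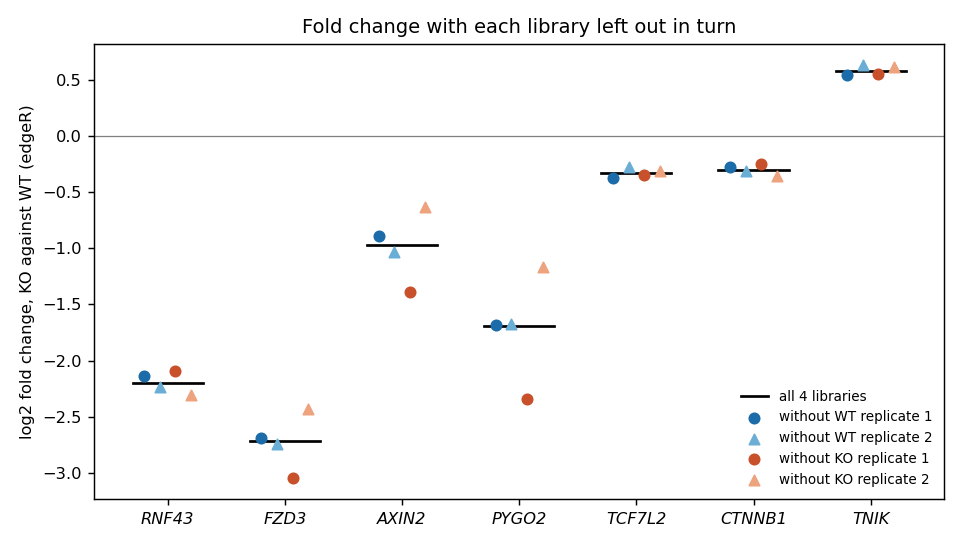
Log2 fold change of KO against WT (y axis, edgeR) for the 7 WNT pathway genes with an unadjusted p under 0.05; black lines are the estimates with all 4 libraries and symbols the estimates with 1 library left out. RNF43 stays between -2.30 and -2.10 and TNIK between 0.54 and 0.63, while AXIN2 runs from -1.39 to -0.64 and PYGO2 from -2.34 to -1.17.

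Among the target genes of the set RNF43 was the 1 called by DESeq2, where 0.946% of genes with an adjusted p were called lower. By edgeR 0 were called after adjustment. Of 22 genes labelled as targets, which cut across the roles above, 13 were tested. Of these, 10 lay below 0, where 51.5% of all genes tested did, and the median was -0.21. Without WT replicate 1, 6 of the 13 lay below 0 and the median was 0.05. With upper-quartile scaling 8 of the 13 lay below 0. Groups did not overlap in 4 of the 13, all with KO the lower, against 23.5% of all genes tested in that direction. Among 9 further target genes tested, which belong to the other pathway genes below, 6 lay below 0, against 51.5% of all genes tested. Their groups did not overlap in 4 with KO the lower and in 2 with KO the higher, against 23.5% of all genes tested in each direction. CD44, a cell-surface receptor for hyaluronan, had 840.3 and 692.6 CPM in WT and 739.3 and 768.7 CPM in KO, with both KO libraries between the WT libraries (log2 fold change -0.02, SE 0.14). BMP4 had 122.6, 130.3, 122.6 and 147.4 CPM, and its groups overlapped.

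The chloride cotransporter SLC12A2 had 136.2 CPM in WT replicate 1 and 85.8 to 97.6 CPM in the other 3 libraries, so its lower mean in KO came from WT replicate 1 alone. TNFRSF19, a receptor of the TNF family, had 40 to 68 counts and a log2 fold change of -0.16 (SE 0.32). CAB39L had 7 to 22 counts. SP5 and PROX1 had 0 counts in all 4 libraries.

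The tested genes next to RNF43, FZD3, AXIN2 and TNIK on their chromosomes were examined, to show whether differences extended to their neighbours. RNF43 lies on chromosome 17. Of the 5 tested genes on each side of it, 9 of 10 had a log2 fold change below 0, where 51.5% of all genes tested did. The 10 ranged from -0.34 to 1.04 with a median of -0.17. Groups did not overlap in 3 of them with KO the lower and in 0 with KO the higher, against 23.5% of all genes tested in each direction. An unadjusted edgeR p under 0.05 was met by 0 of the 10 and by 11.2% of all genes tested. SUPT4H1 and TSPOAP1-AS1, whose annotated spans overlap RNF43, had -0.29 and -0.03. FZD3 lies on chromosome 8, and its 10 neighbours ran from -0.41 to 1.07 with a median of -0.06, with 5 below 0. At an unadjusted edgeR p under 0.05, 2 of them, INTS9 and DUSP4, were higher in KO, where 4.97% of all genes tested were. The 10 neighbours of AXIN2, also on chromosome 17, had a median of -0.09 and ran from -1.52 to 0.33, and BPTFP1 at -1.52 lay below AXIN2 itself. Those of TNIK on chromosome 3 had a median of -0.16, and they ran from -0.47 to 0.59. NCEH1, at 0.59, had about the same value as TNIK. Groups did not overlap in 5 of the 10, with KO the higher in 2 and the lower in 3, where 23.5% of all genes tested did so in each direction.

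**Figure D5:**
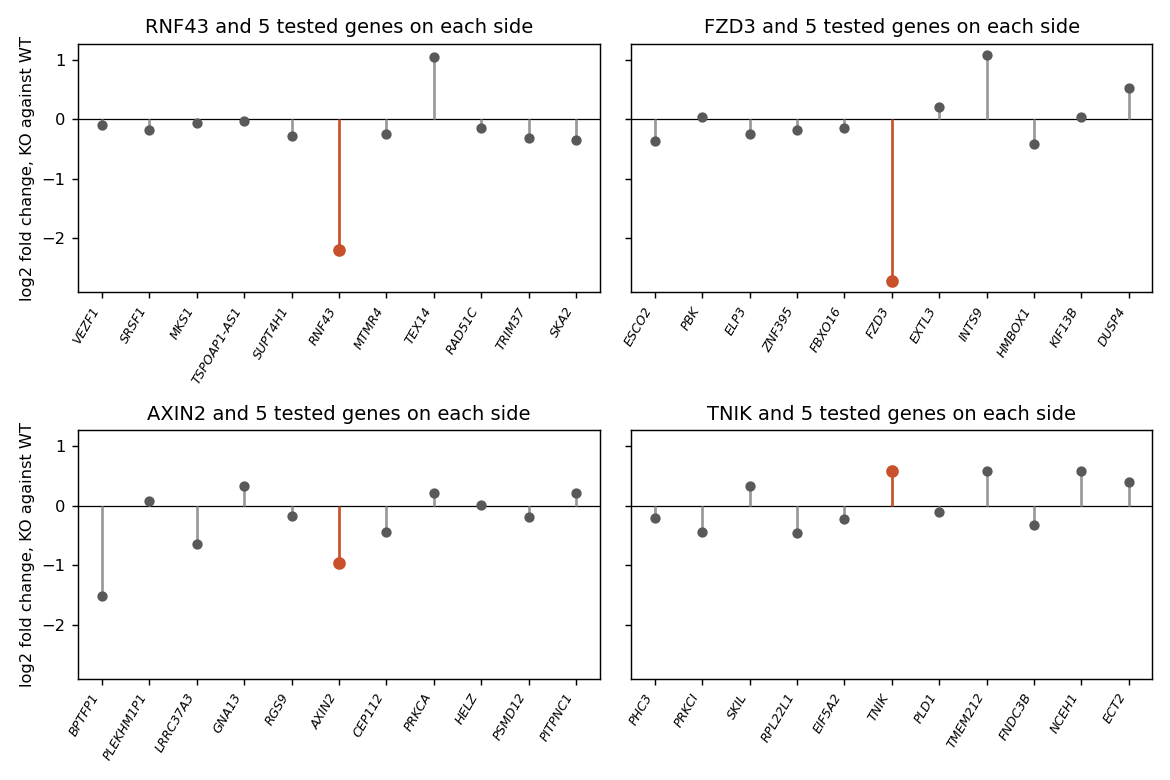
Log2 fold change of KO against WT (y axis, edgeR) for RNF43, FZD3, AXIN2 and TNIK (orange) and the 5 tested genes on each side in chromosome order (grey, x axis). RNF43 at -2.19 and FZD3 at -2.72 stand below all 10 of their neighbours.

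A list of 101 other pathway genes was examined in the same way, of which 84 had a row and 55 were tested. Of the 55, 28 lay below 0 and 27 above, with a median of -0.02. By edgeR and DESeq2 0 of them passed after adjustment, and at an unadjusted edgeR p under 0.05 there were 5 lower and 6 higher, where 6.21% and 4.97% of all genes tested met it. EPHB2, a target gene that sorts cells along the intestinal crypt, had 53.6 and 60.8 CPM in WT and 36.5 and 29.8 CPM in KO (log2 fold change -0.79, SE 0.17; edgeR unadjusted p = 0.00560; DESeq2 adjusted p = 0.0676). ID2, an inhibitor of helix-loop-helix factors, had 11.7 and 9.83 CPM in WT and 5.69 and 3.05 CPM in KO. VEGFA, the vascular growth factor, had 133.3 and 138.4 CPM in WT and 98.7 and 109.9 CPM in KO (-0.38, SE 0.12; edgeR unadjusted p = 0.0238).

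The groups of these target genes did not overlap. PPP2R5A, a regulatory subunit of the phosphatase PP2A, had 43.5 and 30.2 CPM in WT and 23.04 and 23.8 CPM in KO. PRICKLE2, a planar polarity gene, had 18 and 14 counts in WT and 0 and 5 in KO, so few that no fold is given. Its counts were lower in both KO libraries, while its relative PRICKLE1 had 6.16 and 9.17 CPM in WT and 13.1 and 12.5 CPM in KO.

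In the higher direction PPARD, a nuclear receptor named as a target, had 2.70 and 3.44 CPM in WT and 6.69 and 7.75 CPM in KO (log2 fold change 1.23, SE 0.32; edgeR unadjusted p = 0.0114). TLE1, a corepressor that binds TCF factors, had 32 and 40 counts in WT and 67 and 84 in KO. DACT1, a Dishevelled-binding protein, had 12 and 14 counts in WT and 27 and 52 in KO. These groups did not overlap, but the counts were low. WNT10B, a ligand, had 6 and 4 counts in WT and 18 and 15 in KO, and CELSR1, a cadherin of planar polarity, had 5 and 3 in WT and 17 and 14 in KO. The target genes MYC and CCND1 had log2 fold changes of 0.11 (SE 0.13) and -0.02 (SE 0.42), and their groups overlapped.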

How the data were processed

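The values are the authors' deposited estimated counts per gene, given as whole numbers, and a second deposited table of RPKM for the same libraries. The submitters' processing notes name Salmon 1.10.1 and hg19 without saying more; the annotation, strand setting and filters behind them are unknown here. From the values, the deposited RPKM are the counts divided by the column sum and a gene length. Libraries were stranded, from total RNA, read as pairs of 150 bases in a pool of 12, per the labels' protocols.

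Counts were tested with edgeR 4.0.16 (R 4.3.3; filterByExpr, TMM factors, quasi-likelihood F-test on genotype, 12269 genes), with Benjamini-Hochberg adjustment over all genes and a threshold of 0.05. CPM are counts scaled by library size and TMM factor. The SE is the log2 fold change divided by the square root of F. Alternatives were DESeq2 1.42.0, RLE and upper-quartile factors, no filter, a replicate block, and each library left out. Leaving out libraries under DESeq2 was added after the data were seen. The fits were tested on simulated data. The genes and lists were chosen with earlier results of these data known.

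Values in every library are given for genes with an unadjusted edgeR or adjusted DESeq2 p under 0.05, for RNF43, ZNRF3, AXIN1, AXIN2, APC, GSK3B, CTNNB1, LGR4, LGR5, TCF7L2 and CD44, and for the most abundant gene of each role; others are given by range or values. Gene order, spans and overlaps come from GENCODE 29 (GRCh38), matched by symbol for all 60 genes, with no coordinates since the build differs. Of the 49 genes with a row, 25 overlap another row, so their estimates may share reads. Promoters are RefSeq's.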

Additional observations from a re-analysis of the deposited data

How the results depend on the processing

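RNF43 and FZD3 kept their direction in all alternatives run, and both were called in every DESeq2 fit, including those with a library left out (adjusted p at most 0.00979); by edgeR both were called with no filter and without WT replicate 2, and RNF43 also with upper-quartile factors. AXIN2 and TNIK kept their direction and were called in none. Genes called over the whole table numbered 1 by the main test and 5 with upper-quartile factors, 34 with no filter, 187 with DESeq2 and 0 to 721 with a library left out; for WNT pathway genes these numbers were 0, then 1, 2, 2 and 0 to 4. Genes at an unadjusted p under 0.05 numbered 7, and 4 to 10 with a library left out. The median log2 fold change over the 36 genes was -0.055 with upper-quartile factors and -0.16 to 0.021 with a library left out; over the target genes it ran from -0.27 to 0.056. Differences between replicate 1 and replicate 2 in WT were nearly uncorrelated with those in KO (r = 0.0637 over 12269 genes). Whether libraries with the same replicate number were prepared together is not stated, and this correlation cannot decide it. With the replicate block, 5 of the 36 WNT pathway genes had an unadjusted edgeR p under 0.05 and 0 of them were called. The share over all genes is not given for that fit. RNF43 had -2.20 there (edgeR adjusted p = 0.0873) and FZD3 -2.74 (edgeR adjusted p = 0.131).

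Direction turned in 17 of the 36 genes under some alternative, and none of these was called with all libraries. CD44 turned to 0.023 with upper-quartile factors, and CAB39L to 0.053 with those factors, 0.011 with DESeq2, 0.0055 with no filter and 0.11 with the replicate block. With a library left out, under edgeR or DESeq2, log2 fold changes ran from -7.74 to 6.40 for ZNRF3, -3.55 to 2.28 for LGR4, -1.07 to 0.13 for NOTUM, -0.86 to 0.31 for LRP5, -0.61 to 0.0081 for ROR1, -0.57 to 1.00 for CAB39L, -0.56 to 0.28 for DKK1 and -0.52 to 0.14 for SLC12A2. They ran from -0.23 to 0.079 for DVL2, -0.21 to 0.019 for RYK, -0.20 to 0.016 for WLS, -0.15 to 0.13 for CD44, -0.12 to 0.18 for NKD2, -0.071 to 0.22 for CSNK1A1, -0.044 to 0.24 for BMP4, -0.030 to 0.31 for TCF7 and -0.015 to 0.058 for DVL3. The log2 ratio of the FZD3 to the ROR2 level in WT was 1.80 in RPKM and -1.29 per kilobase of exon. The RPKM are scaled by column sums and the CPM also by TMM factors. Within a library both genes share that scaling, so there the length alone differs. The cause of the other turns was not tested. A group left with 1 library was assumed to vary like the other. With 2 libraries a group, exact tests cannot fall below 0.333.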
